A study of Mus musculus with 16 samples.

Results

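Netrins are secreted cues that guide growing axons and also act on endothelial and other cells, and they signal through single-pass receptors of the UNC5 family and through the related receptors DCC and neogenin. DCC and neogenin mostly mediate attraction or adhesion, whereas UNC5 receptors mediate repulsion, and several of these receptors can trigger cell death when no ligand is bound. The netrin ligands and receptors described here are 8 genes, the ligands Ntn1 and Ntn4 and the receptors Unc5a, Unc5b, Unc5c, Unc5d, Dcc and Neo1, taken by gene symbol from a table of 37991 genes, and each symbol matched 1 row. They were measured by bulk RNA sequencing in whole mouse hearts at stage E10.5, in 16 libraries of 4 genotypes at the Tbx5 locus, the gene for a T-box factor that heart and limb formation depend on. The genotypes, with 4 libraries each, were Tbx5 del/CreERT2 (1 copy of each altered allele), Tbx5 del/+ (1 copy carrying the del allele), Tbx5 CreERT2/+ (1 copy carrying the CreERT2 allele) and wild type (WT). The labels give no strain, driver or inducing agent, do not say what the del and CreERT2 alleles remove, and do not tell which libraries are separate hearts or litters, so p-values measure the spread between these libraries, which may be technical.

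All 8 genes passed the filter on low counts that left 14612 genes for testing. They were chosen by symbol with earlier results of these data in view, and the values they were selected on include the low Ntn1 in del/CreERT2 hearts and the high Unc5d in del/+ and del/CreERT2 hearts, each against WT. Those 3 differences are therefore given as descriptions, with their size and error and with no p-value. Per gene model in the deposited table (mouse build mm9), Ntn1 (ENSMUSG00000020902) lies at chr11:68022866-68214325 on the minus strand and Unc5d (ENSMUSG00000063626) at chr8:29757189-30329810 on the minus strand. The other members lie on chromosomes 10 (Ntn4 and Unc5b), 13 (Unc5a), 3 (Unc5c), 18 (Dcc) and 9 (Neo1), and the values below are counts over the whole gene model, so they name no exon or isoform.

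The promoters of the 3 receptors with the highest level per length, Unc5b, Neo1 and Unc5c, are printed because these receptors make up most of the netrin receptor transcripts in every genotype and none of them passed in the 6 pairwise comparisons. Each sequence is the 250 bases before the gene's start, read 5′ to 3′ on the gene's strand from RefSeq promoters of build GRCm38.p6, with the T-box core AGGTGT (or ACACCT on the other strand) in capitals where it occurs. Unc5b spans chr10:60831582-60831831 (minus strand), Neo1 spans chr9:59036442-59036691 (minus strand) and Unc5c spans chr3:141465314-141465563 (plus strand).
Unc5b: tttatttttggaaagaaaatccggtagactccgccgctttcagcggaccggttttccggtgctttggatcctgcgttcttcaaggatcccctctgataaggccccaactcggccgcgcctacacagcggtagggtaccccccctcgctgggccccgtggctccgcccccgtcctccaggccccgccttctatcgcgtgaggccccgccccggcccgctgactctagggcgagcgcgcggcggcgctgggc
Neo1: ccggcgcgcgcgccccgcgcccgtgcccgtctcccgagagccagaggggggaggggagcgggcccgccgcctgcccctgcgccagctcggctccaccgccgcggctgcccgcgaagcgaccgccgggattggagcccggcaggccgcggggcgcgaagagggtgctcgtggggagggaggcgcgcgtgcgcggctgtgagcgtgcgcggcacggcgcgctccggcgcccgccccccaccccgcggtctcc
Unc5c: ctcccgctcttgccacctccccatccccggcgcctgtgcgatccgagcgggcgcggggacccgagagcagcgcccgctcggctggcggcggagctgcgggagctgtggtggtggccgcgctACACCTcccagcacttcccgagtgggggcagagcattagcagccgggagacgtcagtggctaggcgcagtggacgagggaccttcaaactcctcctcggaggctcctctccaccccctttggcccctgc
The motif was searched in the promoters of 5 members (Ntn4, Unc5a, Unc5b, Unc5c and Neo1). Of these 5, 1 held the motif on either strand, once, in Unc5c, against 11.8% of all 32851 promoters of the same length. Promoters of Ntn1, Unc5d and Dcc were not searched, so that count does not cover them. Both spellings are the same motif on opposite strands, and their letters cannot overlap. A match is a run of letters and no evidence of binding. The base composition was high in G and C in all 3, at 66.8% in Unc5b, 83.2% in Neo1 and 71.2% in Unc5c.

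Total counts per library ran from 21436305 to 42731841, and mitochondrial ribosomal RNA took 42.3% to 78.3% of them. In del/CreERT2 3, CreERT2/+ 3 and WT 4 that share was lowest within the genotype (53.6%, 42.3% and 60.6%), and results on Ntn1 and Unc5d are therefore also given without these 3 libraries. In del/CreERT2 2 both Xist (31.2 CPM) and the Y-linked gene Kdm5d (19.9 CPM) were present, and values without it are given beside the results too. In del/+ 4 Xist was at 4.64 CPM beside Kdm5d at 26.9 CPM. Kdm5d was at 19.85 CPM or more in del/CreERT2 2 and 3, del/+ 1, 2 and 4, CreERT2/+ 1, and WT 3 and 4. It was at 0.154 CPM or less in all others, so it was unevenly spread over the genotypes. The part of sex in the results was not tested. Tbx5 itself averaged 22.4 ± 1.79 CPM in del/CreERT2 libraries, 31.2 ± 7.18 CPM in del/+ libraries, 24.5 ± 9.91 CPM in CreERT2/+ libraries and 19.7 ± 5.24 CPM in WT libraries (SD, n = 4 each), and since gene-level counts do not show which exons the reads came from, they check no label. CPM are counts scaled to library size with TMM factors. The summed level of 8 cardiomyocyte markers was 14120 to 16270 CPM in del/CreERT2, 11840 to 15670 CPM in del/+, 13650 to 14920 CPM in CreERT2/+ and 12520 to 16550 CPM in WT libraries, with all 8 markers present.

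Compared per length, as CPM per kilobase of gene model, Unc5b and Neo1 were the most abundant members, with medians over the 16 libraries of 5.53 and 4.68 CPM per kilobase, and their ranges overlapped (4.45 to 6.48 and 3.19 to 9.39) and lay above those of all other members. Unc5c (1.30), Ntn1 (0.818), Unc5d (0.413) and Unc5a (0.317) followed, each overlapping its neighbour in this order, and Dcc (0.0681) and Ntn4 (0.0555) were at the bottom with overlapping ranges. Of the ligands, Ntn1 had the higher median on this scale. Ntn4 and Dcc rest on 141 and 328 counts over all 16 libraries, so single libraries carry few reads, down to 0 for Ntn4 in CreERT2/+ 1 and 4 for Dcc in del/CreERT2 3.

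**Figure D1:**
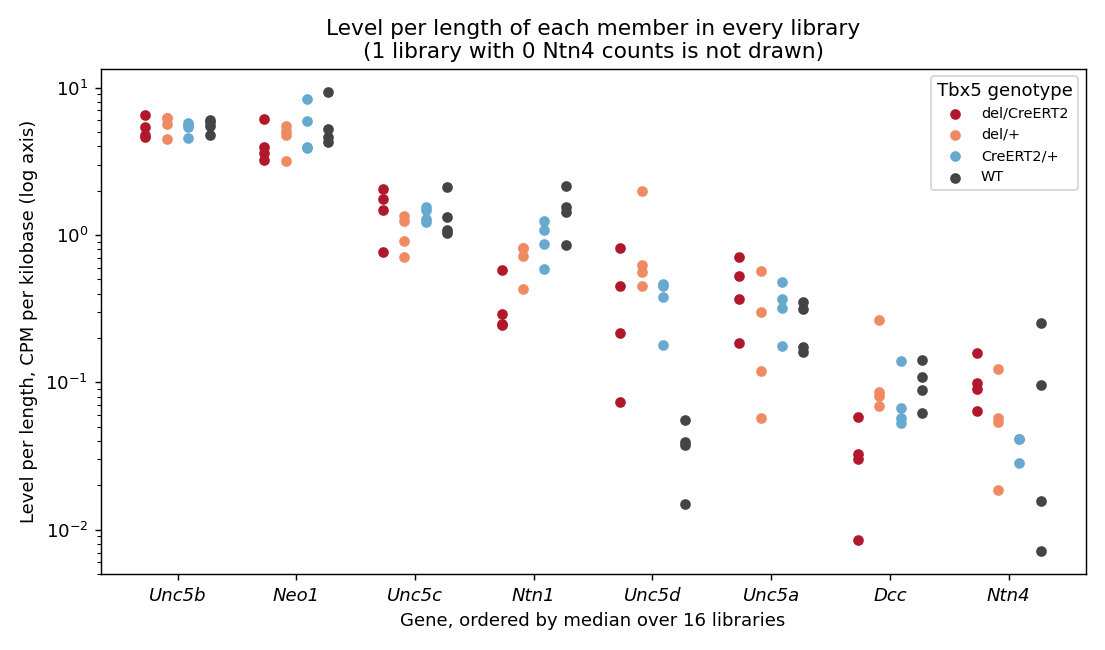
Level per length of each netrin ligand and receptor in all 16 libraries, as CPM per kilobase on a log axis, with genes ordered by their median and genotypes side by side within each gene. Unc5b is the tightest gene, Ntn1 steps upward across the 4 genotypes as drawn, and the 4 WT libraries of Unc5d lie below all 12 others.

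Ntn1, the classical secreted netrin, had its lowest levels in hearts with both Tbx5 copies altered and its highest levels in WT. It was at 3.63, 1.82, 1.56 and 1.53 CPM in del/CreERT2 1 to 4 (74, 54, 91 and 58 counts). In del/+ 1 to 4 it was at 5.15, 5.12, 2.71 and 4.51 CPM, and in CreERT2/+ 1 to 4 at 6.78, 3.69, 7.85 and 5.43 CPM. In WT 1 to 4 it was at 13.5, 5.35, 8.97 and 9.70 CPM. All 4 del/CreERT2 libraries were below all 4 WT libraries and below all 4 CreERT2/+ libraries, and the del/+ libraries were all below WT, whereas del/CreERT2 overlapped del/+ through del/CreERT2 1 and CreERT2/+ overlapped WT through WT 2. The group means were 2.13 ± 1.00 CPM in del/CreERT2, 4.37 ± 1.15 CPM in del/+, 5.94 ± 1.80 CPM in CreERT2/+ and 9.37 ± 3.33 CPM in WT (SD, n = 4 each).

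**Figure D2:**
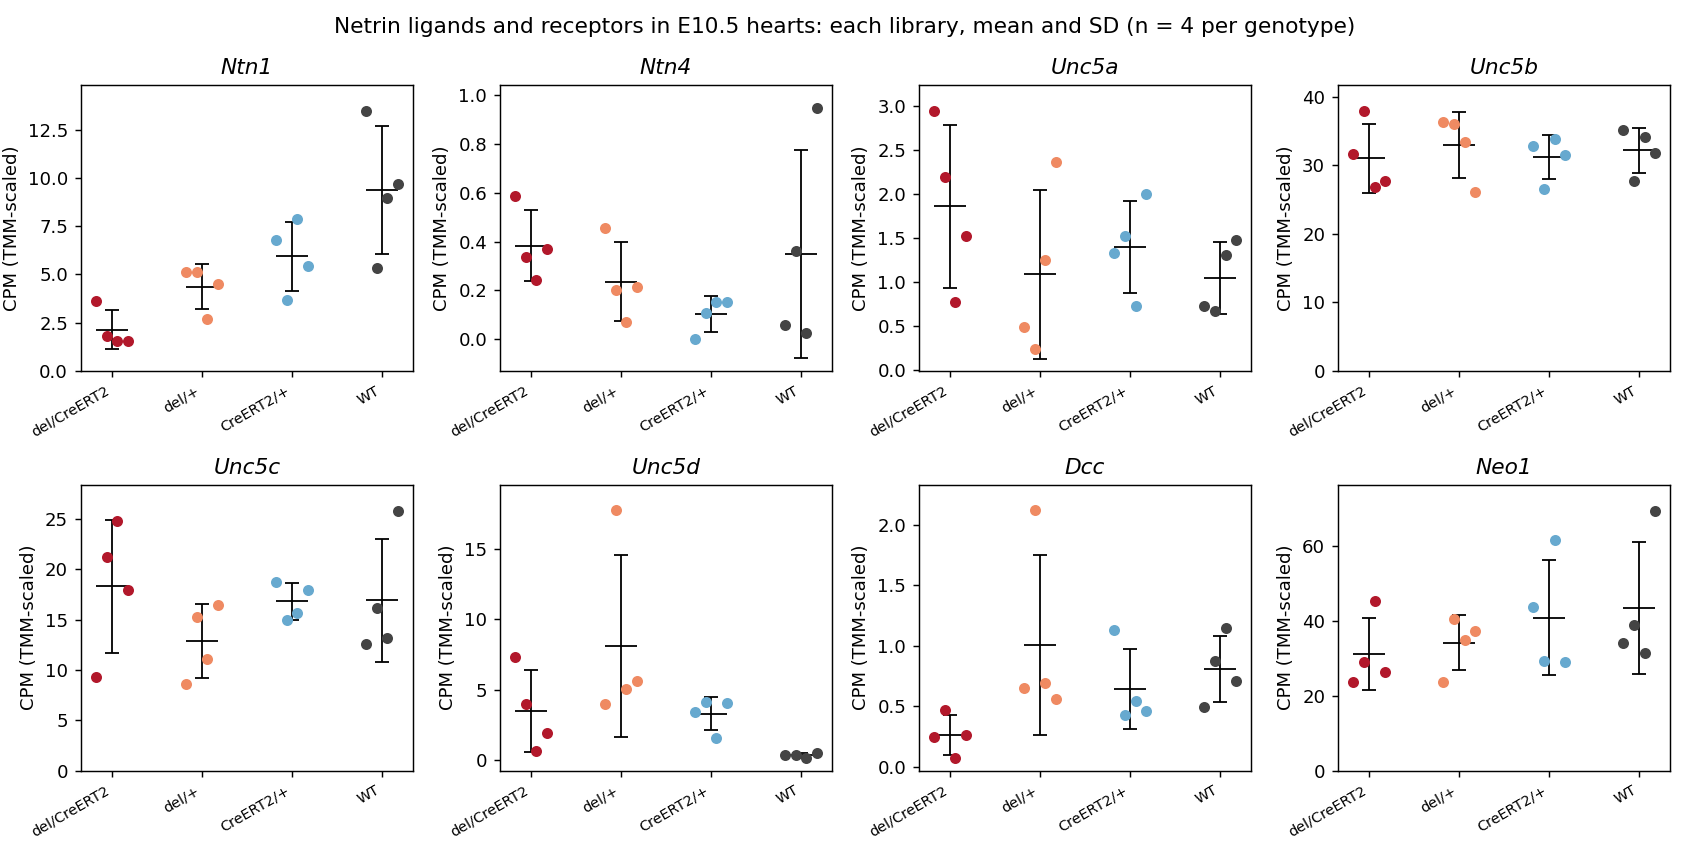
TMM-scaled CPM of the 8 netrin ligands and receptors in every library (points), with the genotype mean and SD (n = 4) in black, for del/CreERT2, del/+, CreERT2/+ and WT from left to right. Ntn1 averages 2.13 CPM in del/CreERT2 and 9.37 CPM in WT, Unc5d is at most 0.50 CPM in WT, and Unc5b is level across the genotypes.

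The Ntn1 difference between del/CreERT2 and WT was -2.16 ± 0.33 on the log2 scale (estimate ± standard error), a 4.48-fold lower level. It was -2.02 without the 3 libraries of low mitochondrial share and -2.10 without del/CreERT2 2. In the authors' deposited table the same comparison, turned to del/CreERT2 over WT, is -2.14. Against CreERT2/+, Ntn1 in del/CreERT2 was lower by a log2 change of -1.51 ± 0.33, and against del/+ by -1.06 ± 0.33, but neither passed the threshold of 0.05 (edgeR's quasi-likelihood test, Benjamini-Hochberg adjusted p = 0.10 and 0.724 over all tested genes). The change against CreERT2/+ passed without del/CreERT2 1, the highest library of its group (-1.86, adjusted p = 0.035), and under DESeq2 (adjusted p = 0.00542). It did not pass without the 3 libraries of low mitochondrial share (-1.22, adjusted p = 0.34), without del/CreERT2 2 (-1.45, adjusted p = 0.453) or under limma-voom (adjusted p = 0.132). The comparisons of del/CreERT2 with CreERT2/+ and del/+ use the del/CreERT2 libraries on which Ntn1 was selected. Their p-values are therefore not independent of that choice. In the single-allele hearts Ntn1 was at a log2 change of -1.10 ± 0.32 in del/+ and -0.66 ± 0.32 in CreERT2/+ against WT, with adjusted p = 0.399 and 1.0 by the same test. All 3 comparisons use the same 4 WT libraries, so their values are not independent of each other. In RNA of whole hearts, fewer Ntn1-expressing cells and less Ntn1 RNA per cell cannot be told apart.

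Markers of the epicardium, the outer cell layer of the heart, are given beside Ntn1 because the medians of their summed level had the same order of genotypes as the Ntn1 means. All 7 markers (Wt1, Tbx18, Upk3b, Upk1b, Aldh1a2, Tcf21 and Msln) were present in each genotype, and their summed level was 52.9 to 68.6 CPM in del/CreERT2, 72.0 to 89.0 CPM in del/+, 82.5 to 105.6 CPM in CreERT2/+ and 89.0 to 106.3 CPM in WT libraries. The order did not hold for each marker alone: the median of Wt1 was 6.15 CPM in del/+ and 5.95 CPM in CreERT2/+, that of Upk3b was 35.8 CPM in CreERT2/+ and 35.0 CPM in WT, and Msln had its highest median in del/CreERT2 (0.26 CPM). The part of these markers in the Ntn1 result was not tested. Endocardial and endothelial markers overlapped between the genotypes, with summed levels of 167.2 to 181.3 CPM in del/CreERT2, 163.7 to 185.7 CPM in del/+, 157.0 to 168.2 CPM in CreERT2/+ and 157.7 to 207.2 CPM in WT libraries. The epicardial and endothelial sums are each over 7 markers. The 4 second heart field and pharyngeal mesoderm markers summed to 1.08 to 3.54 CPM in del/CreERT2, 0.680 to 2.23 CPM in del/+, 0.425 to 1.54 CPM in CreERT2/+ and 0.583 to 1.03 CPM in WT. The 8 pharyngeal endoderm and liver markers summed to 4.57 to 26.99 CPM, 1.22 to 223.8 CPM, 0.822 to 12.65 CPM and 1.05 to 32.29 CPM in that order. The part of these markers was not tested either.

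Ntn4, a netrin of basement membranes related to laminins, was barely detected. It had 10 to 14 counts per library in del/CreERT2, 2 to 12 in del/+, 0 to 8 in CreERT2/+ and 1 to 36 in WT. Its means were 0.384 ± 0.147, 0.235 ± 0.162, 0.104 ± 0.0726 and 0.348 ± 0.427 CPM in del/CreERT2, del/+, CreERT2/+ and WT libraries (SD, n = 4 each). WT alone ran from 0.0267 to 0.947 CPM, a range that took in all other libraries but CreERT2/+ 1, which was at 0. The 4 del/CreERT2 libraries were above the 4 CreERT2/+ libraries, with a log2 change of 1.74 ± 0.89, short of the threshold in edgeR's test (adjusted p = 0.999). Other table entries overlap Ntn4, the largest being Gm15915 with 128 counts on the opposite strand, and since the strand setting of the counting is unknown here, the pair's reads cannot be told apart.

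Among the receptors, Unc5d stood apart: its transcripts were scarce in WT hearts and higher in all 12 libraries with an altered Tbx5 allele. Unc5d was at 7.31, 4.00, 0.653 and 1.92 CPM in del/CreERT2 1 to 4. It was at 4.00, 17.8, 5.03 and 5.63 CPM in del/+ 1 to 4, and at 3.39, 4.15, 1.60 and 4.05 CPM in CreERT2/+ 1 to 4. WT 1 to 4 had 0.350, 0.334, 0.134 and 0.50 CPM, which is 12, 13, 5 and 19 counts. Each of the 12 libraries with an altered allele was above each WT library, the nearest being del/CreERT2 3. Genes outside the netrin system, such as 7SK and Fam3c described below, separated these libraries in the same way. The share of all tested genes that do so was not computed. The altered genotypes overlapped each other, and del/+ 2 was far above the other libraries of its group.

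The Unc5d difference from WT was 4.60 ± 0.65 on the log2 scale in del/+ (24.3-fold) and 3.35 ± 0.63 in del/CreERT2 (10.2-fold). Without the 3 libraries of low mitochondrial share these were 4.87 and 3.97, and without del/CreERT2 2 the second was 3.26. Without del/+ 2 the first was 3.88. The authors' deposited table, turned so that WT is the denominator, gives 4.62 for del/+ and 3.39 for del/CreERT2. CreERT2/+ against WT uses the same WT libraries, so it is not independent of the differences selected on. It gave 3.29 ± 0.64 (9.81-fold, higher in 4 of 4 libraries) and did not pass edgeR's quasi-likelihood test (adjusted p = 0.0638). That value passed without CreERT2/+ 3 (3.55, adjusted p = 0.0043), without the 3 libraries of low mitochondrial share (3.81, adjusted p = 0.000703) and under DESeq2 (adjusted p = 0.0039), and it did not under limma-voom (adjusted p = 0.995). Unc5d was chosen with earlier results of these data in view, so these p-values are not independent of that choice.

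Among the altered genotypes, Unc5d was at a log2 change of -1.26 ± 0.54 in del/CreERT2 against del/+, 0.05 ± 0.54 in del/CreERT2 against CreERT2/+ and 1.31 ± 0.54 in del/+ against CreERT2/+, with adjusted p = 0.918, 0.999 and 0.997 by edgeR's test. The 95% interval of the second of these, from its standard error, ran from -1.01 to 1.12. Without del/+ 2, the change in del/CreERT2 against del/+ was -0.52 and that in del/+ against CreERT2/+ was 0.58. All of these comparisons use del/+ or del/CreERT2 libraries on which Unc5d was selected, so their p-values are not independent of that choice. The mean of del/CreERT2, with both altered alleles, lay between those of WT and del/+.

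**Figure D3:**
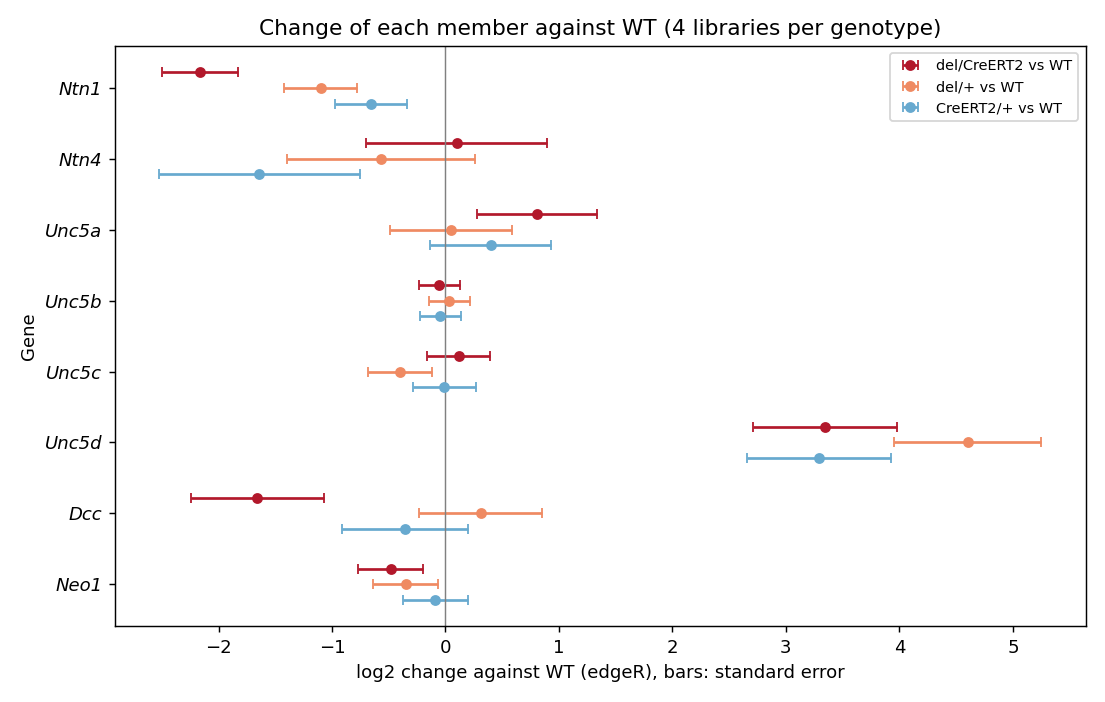
Log2 change of each netrin ligand and receptor against WT in del/CreERT2, del/+ and CreERT2/+ hearts (points) with standard errors (bars), all from 1 edgeR fit of 16 libraries and all sharing the 4 WT libraries. Ntn1 is left of 0 in all 3 genotypes with the largest distance in del/CreERT2 (-2.16), Unc5d is right of 0 in all 3 (3.35, 4.60 and 3.29), and the points of Unc5b stay within 0.06 of 0.

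Unc5d is known chiefly from neurons, where it acts in the layering of the cortex, so neural markers are given beside it. The summed level of 8 neuronal markers was 7.74 to 12.6 CPM in del/CreERT2, 6.10 to 8.34 CPM in del/+, 5.81 to 7.02 CPM in CreERT2/+ and 6.79 to 7.34 CPM in WT libraries. Neural crest and glial markers (6 of 7 in the table) summed to 4.21 to 6.43 CPM in del/CreERT2, 2.67 to 4.04 CPM in del/+, 3.76 to 5.92 CPM in CreERT2/+ and 3.15 to 5.81 CPM in WT libraries, with Foxd3 at 0 in del/+, CreERT2/+ and WT. Neural tube progenitor markers (6 of 7 in the table) were at 0.505 to 3.63 CPM in del/CreERT2, 0.191 to 0.258 CPM in del/+, 0.251 to 0.411 CPM in CreERT2/+ and 0.107 to 0.289 CPM in WT libraries. The 3.63 CPM came from del/CreERT2 1 alone, and the rest of that genotype was at 0.505 to 0.632 CPM. Pax6 held 89 counts and Olig2 39 over the del/CreERT2 libraries, so these sums rest on few reads. Nkx2-2 was at 0 in del/+, CreERT2/+ and WT, Olig2 in del/+ and CreERT2/+, and Hes5 in del/CreERT2, CreERT2/+ and WT. All del/CreERT2 libraries were above all WT libraries in the neuronal and progenitor sums. Single neuronal markers differed in direction: the median of Dcx was 2.33 CPM in del/CreERT2 and 1.30 CPM in WT, that of Tubb3 was 1.19 CPM in del/CreERT2 and 1.45 CPM in WT, and that of Stmn2 was 0.458 CPM in del/CreERT2 and 0.902 CPM in WT. In the crest, progenitor and neuronal sums alike, the del/+ libraries, with the highest mean of Unc5d, overlapped WT. The part of these markers in the Unc5d result was not tested.

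Unc5b, a receptor of endothelial cells that restrains vessel sprouting, was the steadiest member. It averaged 31.0 ± 5.03 CPM in del/CreERT2, 32.9 ± 4.77 CPM in del/+, 31.2 ± 3.21 CPM in CreERT2/+ and 32.2 ± 3.29 CPM in WT libraries (SD, n = 4 each), and all 16 values lay between 26.1 and 37.9 CPM. In del/CreERT2 against WT its log2 change was -0.05 with an interval of -0.41 to 0.30, in del/+ against WT 0.03 (-0.32 to 0.39) and in CreERT2/+ against WT -0.05 (-0.40 to 0.31). These 95% intervals leave out a log2 change of 1 in either direction.

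Unc5c, a repulsive receptor of migrating neurons and axons, was at 9.27, 21.2, 24.7 and 17.9 CPM in del/CreERT2 1 to 4 and averaged 18.3 ± 6.62 CPM there. Its mean was 12.8 ± 3.65 CPM in del/+, 16.8 ± 1.81 CPM in CreERT2/+ and 16.9 ± 6.13 CPM in WT (SD, n = 4 each). The groups overlapped in every comparison, and the largest log2 change, 0.51 ± 0.28 in del/CreERT2 against del/+, did not pass edgeR's test (adjusted p = 0.999). The tested entry Gm15689 overlaps Unc5c on the opposite strand with 163 counts over all libraries, against 8722 for Unc5c.

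Unc5a, which like other UNC5 proteins can induce cell death in neurons, averaged 1.86 ± 0.925 CPM in del/CreERT2, 1.09 ± 0.953 CPM in del/+, 1.40 ± 0.524 CPM in CreERT2/+ and 1.05 ± 0.406 CPM in WT libraries (SD, n = 4 each). Single libraries ran from 0.774 to 2.94 CPM in del/CreERT2, from 0.240 to 2.36 CPM in del/+, from 0.733 to 2.00 CPM in CreERT2/+ and from 0.669 to 1.47 CPM in WT. These ranges overlapped throughout, and the log2 change of 0.80 ± 0.53 in del/CreERT2 against WT did not pass (edgeR, adjusted p = 1.0).

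Dcc, the receptor that turns growing axons toward netrin, was low everywhere and lowest in del/CreERT2. It was at 0.245, 0.471, 0.0688 and 0.263 CPM in del/CreERT2 1 to 4 (5, 14, 4 and 10 counts). It was at 0.648, 2.12, 0.694 and 0.559 CPM in del/+ 1 to 4, at 1.13, 0.425, 0.540 and 0.461 CPM in CreERT2/+ 1 to 4, and at 0.496, 0.875, 1.15 and 0.710 CPM in WT 1 to 4. All del/CreERT2 libraries were below all del/+ and all WT libraries, while the CreERT2/+ group reached down among them. The log2 change of Dcc was -1.66 ± 0.59 in del/CreERT2 against WT, -1.97 ± 0.59 against del/+ and -1.30 ± 0.60 against CreERT2/+, and none passed edgeR's test (adjusted p = 0.476, 0.689 and 0.999). In del/+ against WT it was 0.31 ± 0.54 and turned to -0.35 without del/+ 2, the library with the highest value.

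Neo1, which encodes neogenin, a receptor for netrins and for repulsive guidance molecules, was at 23.7, 29.1, 45.2 and 26.4 CPM in del/CreERT2 1 to 4. Its mean was 31.1 ± 9.66 CPM in del/CreERT2, 34.1 ± 7.36 CPM in del/+, 40.8 ± 15.4 CPM in CreERT2/+ and 43.5 ± 17.5 CPM in WT libraries (SD, n = 4 each). The highest library of 3 genotypes was the one low in mitochondrial ribosomal RNA: del/CreERT2 3 (45.2 CPM), CreERT2/+ 3 (61.4 CPM) and WT 4 (69.4 CPM). The Neo1 log2 change in del/CreERT2 against WT was -0.48 ± 0.29 (edgeR, adjusted p = 0.999), and -0.40 without these 3 libraries. How far that share acts on the Neo1 level was not tested.

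Counted over the 8 members, 1 was higher (Unc5d) and 1 lower (Ntn1) past the threshold in del/CreERT2 against WT, where 0.185% of all tested genes were higher, 0.151% lower and 0.335% either. In del/+ against WT 1 was higher (Unc5d) and 0 lower, where 0.109% of all tested genes were higher, 0.00684% lower and 0.116% either. These are the differences on which the genes were selected, so nothing is read from those counts.

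In CreERT2/+ against WT 0 of 8 passed in edgeR (background 0.0342% in all, 0.0342% higher and 0% lower), 2 had an unadjusted p under 0.05 (Ntn1 and Unc5d, background 3.71%), DESeq2 called 1 (Unc5d) and limma-voom 0. In del/CreERT2 against del/+ 0 of 8 passed in edgeR (background 0.0205% in all, 0% higher and 0.0205% lower), 3 had an unadjusted p under 0.05 (Ntn1, Unc5d and Dcc, background 5.08%), and DESeq2 and limma-voom called 0. In del/CreERT2 against CreERT2/+ 0 of 8 passed in edgeR (background 0.0753% in all, 0.0205% higher and 0.0547% lower), 2 had an unadjusted p under 0.05 (Ntn1 and Dcc, background 3.97%), DESeq2 called 1 (Ntn1) and limma-voom 0. In del/+ against CreERT2/+ 0 of 8 passed in edgeR (background 0%), 1 had an unadjusted p under 0.05 (Unc5d, background 4.18%), and DESeq2 and limma-voom called 0. These comparisons share libraries with the differences on which Ntn1 and Unc5d were selected, so nothing is read from their counts. The backgrounds are shares in edgeR, and none is given for DESeq2 or limma-voom. In the interaction of both alleles, which was added after the data were seen, 1 of 8 was past the threshold (Unc5d, lower, background 0.0411% in all, 0% higher and 0.0411% lower), and since it uses the libraries on which Unc5d was selected, nothing is read from it.

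Members whose libraries did not overlap between the groups are counted by direction. Between del/CreERT2 and WT, 1 was higher and 2 were lower in del/CreERT2, against 2.31% and 1.96% of all tested genes (4.28% in all). In del/+ against WT 1 was higher and 1 lower, against 2.18% and 1.88% (4.06% in all). In CreERT2/+ against WT 1 was higher and 0 lower, against 1.05% and 0.602% (1.66% in all). Between del/CreERT2 and del/+, 0 were higher and 1 lower in del/CreERT2, against 2.47% and 1.72% (4.19% in all). Between del/CreERT2 and CreERT2/+, 1 was higher and 1 lower in del/CreERT2, against 1.24% and 1.25% (2.48% in all), and in del/+ against CreERT2/+ 0 were higher or lower, against 0.883% and 1.44% (2.32% in all). The counts in del/CreERT2 and del/+ against WT include the Ntn1 or Unc5d differences selected on. The other comparisons share libraries with these, so nothing is read from these counts. The members' median log2 change was 0.02 in del/CreERT2, -0.16 in del/+ and -0.07 in CreERT2/+ against WT, beside -0.003, -0.02 and 0.01 over all tested genes, and 4 of 8 members were below 0 in del/CreERT2, 4 in del/+ and 6 in CreERT2/+.

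The make-up of the UNC5 family shows the Unc5d difference against the receptors around it. Per length, Unc5b supplied 69.3% ± 1.76 of the summed UNC5 level in del/CreERT2, 72.0% ± 9.23 in del/+, 71.8% ± 4.20 in CreERT2/+ and 76.8% ± 6.43 in WT (SD, n = 4 each). Unc5d supplied 4.93% ± 4.10, 10.9% ± 6.85 and 5.02% ± 1.96 in del/CreERT2, del/+ and CreERT2/+ libraries, and 0.511% ± 0.214 in WT. Its highest share was 20.98% in 1 del/+ library. Unc5c followed Unc5b in size with 20.0% ± 8.10 in del/CreERT2, 13.6% ± 4.16 in del/+, 18.6% ± 0.957 in CreERT2/+ and 19.2% ± 5.81 in WT. The summed level of all 6 receptors overlapped between the genotypes, at 11.9 ± 1.43 CPM per kilobase in del/CreERT2, 12.6 ± 1.88 in del/+, 13.02 ± 2.31 in CreERT2/+ and 13.2 ± 2.86 in WT.

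**Figure D4:**
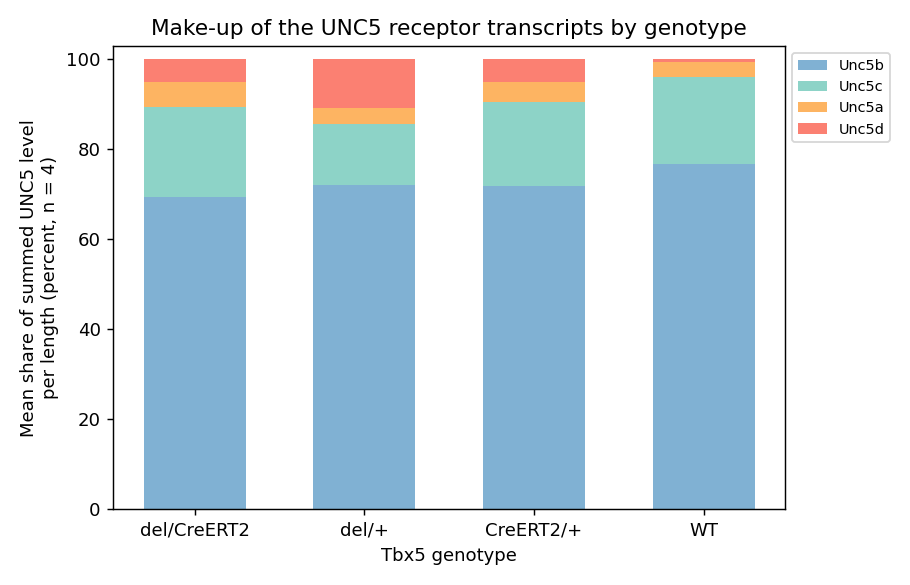
Mean share of each UNC5 receptor in the summed UNC5 level per length (percent, n = 4 libraries per genotype). Unc5b fills 69.3% to 76.8% of each bar, and Unc5d fills 4.93%, 10.9% and 5.02% in del/CreERT2, del/+ and CreERT2/+ but 0.511% in WT.

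Other genes around the netrin system were counted in 4 lists. They begin with other netrins and netrin receptors (10 of 14 tested) and other ligands of UNC5 receptors, DCC and neogenin (7 of 10). Intracellular effectors such as Nck1, Trio, Dock1 and Rac1 follow (22 of 24). The last list, of a separate guidance system, holds the Slit cues, their Robo receptors and Srgap1, Srgap2 and Srgap3 (8 of 10). In each list 0 genes passed edgeR's test in either direction in the 6 pairwise comparisons, and with backgrounds of 0% to 0.335% over all tested genes nothing is read from that count. In del/CreERT2 against WT the 4 list medians were 0.17, -0.11, -0.01 and -0.01 on the log2 scale in that order, in del/+ against WT -0.02, -0.24, -0.04 and -0.16, and in CreERT2/+ against WT 0.01, -0.02, 0.06 and 0.19.

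The gene with the lowest p of each list is given by its values. Ntng2, which encodes the membrane-bound netrin-G2, averaged 0.195 ± 0.136 CPM in del/CreERT2 and 0.771 ± 0.273 CPM in CreERT2/+ (SD, n = 4 each), a log2 change of -2.07 ± 0.63 (edgeR, adjusted p = 0.516). Adgrl3, which encodes latrophilin 3, a partner of FLRT proteins and UNC5 receptors, averaged 9.19 ± 1.38 CPM in del/CreERT2 and 5.55 ± 1.01 CPM in del/+, a log2 change of 0.72 ± 0.22 (edgeR, adjusted p = 0.709). Pak1, a kinase downstream of Rac1 and Cdc42, averaged 3.29 ± 0.681 CPM in del/CreERT2 and 1.97 ± 0.109 CPM in CreERT2/+, a log2 change of 0.73 ± 0.30 (edgeR, adjusted p = 0.999). Slit2, a secreted repulsive cue, averaged 51.8 ± 11.9 CPM in del/+ and 89.1 ± 14.3 CPM in WT, a log2 change of -0.78 ± 0.21 (edgeR, adjusted p = 0.339). In each of these 4 cases the libraries of the 2 groups did not overlap. Of all tested genes, 2.48% did not overlap in del/CreERT2 against CreERT2/+, 4.19% in del/CreERT2 against del/+ and 4.06% in del/+ against WT. These 4 genes were picked for the lowest p of their list, so nothing is read from that count.

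Genes whose level followed Ntn1 most closely over the 16 libraries were Rrad (Pearson r = 0.912 of log2(CPM + 1)), Gsg1l (0.90), Gja5 (0.874), Adora1 (0.838) and Carhsp1 (0.835), out of 13764 genes with a mean of at least 10 counts. By Spearman correlation Rrad, Gsg1l and Gja5 stayed among the closest, with Cpne5 and Pla2g4e in place of Adora1 and Carhsp1. The 16 points share 4 genotypes and their libraries, so r is a description. Gja5, a connexin gene whose channels couple conducting cells, averaged 4.39 ± 1.04 CPM in del/CreERT2, 18.1 ± 3.00 CPM in del/+, 33.2 ± 5.22 CPM in CreERT2/+ and 53.4 ± 16.5 CPM in WT (SD, n = 4 each), the same order of means as Ntn1. Rrad, which encodes a small GTPase that restrains calcium channels, averaged 7.86 ± 1.60, 9.78 ± 1.44, 11.5 ± 2.15 and 14.5 ± 4.02 CPM in that order of genotypes. WT 2, the WT library lowest in Ntn1 (5.35 CPM), was also the lowest in Rrad among WT (8.88 CPM).

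By Pearson correlation, the genes most like Unc5d were the small nuclear RNA 7SK (r = 0.942), Fam3c (0.936), Gm2694 (0.913), Ncald (0.91) and a second 7SK entry (0.899). By Spearman correlation the closest were Kcna1, snoZ40, Med18, Fam3c and Ncald, with neither 7SK entry among them. The 7SK RNA, which binds a transcription elongation factor and carries no poly(A) tail, averaged 119.8 ± 75.8 CPM in del/CreERT2, 339.0 ± 241.0 CPM in del/+, 120.3 ± 60.5 CPM in CreERT2/+ and 17.0 ± 8.46 CPM in WT libraries (SD, n = 4 each). The library highest in Unc5d, del/+ 2, was also the highest in 7SK (691.4 CPM). The libraries with an altered allele held 31.0 CPM of 7SK or more and the WT libraries 12.3 to 29.6 CPM, so 7SK separated them as Unc5d did. Fam3c, the gene of a secreted protein, averaged 40.2 ± 7.64 CPM in del/CreERT2, 55.6 ± 15.9 CPM in del/+, 40.9 ± 9.64 CPM in CreERT2/+ and 17.9 ± 1.61 CPM in WT (SD, n = 4 each). Whether the 7SK level and the Unc5d level share a source in library preparation was not tested.

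**Figure D5:**
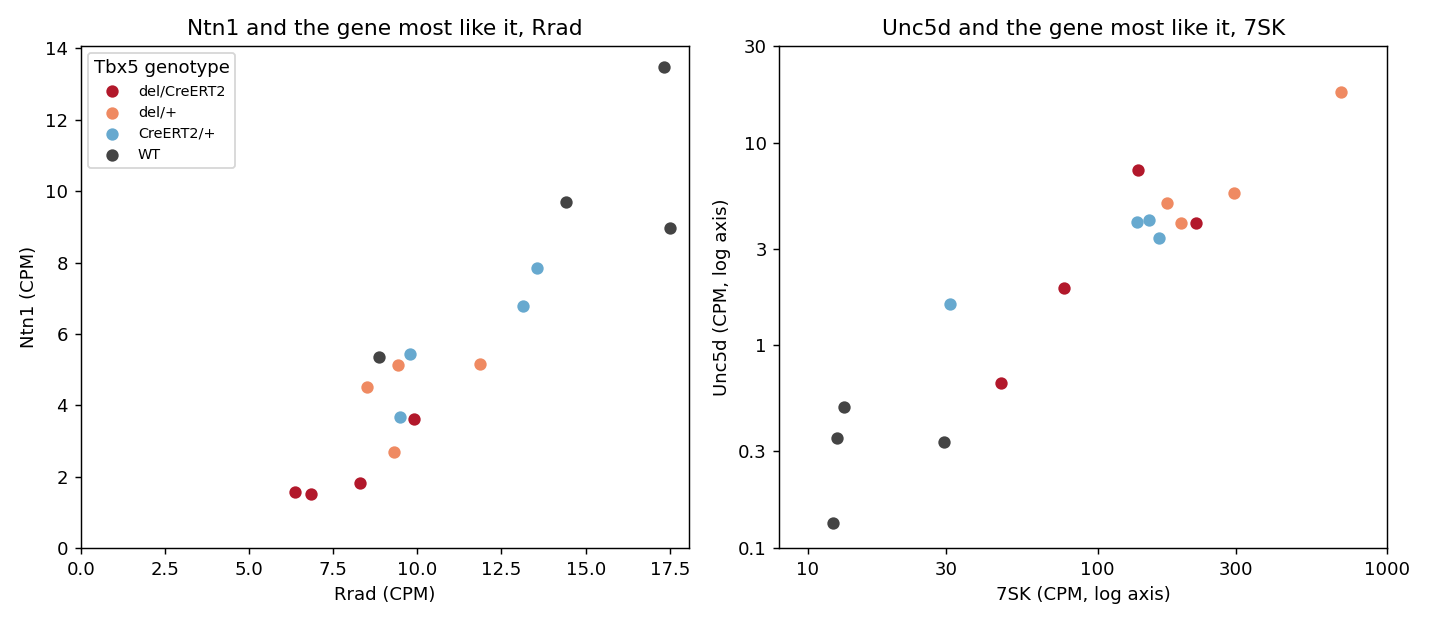
Ntn1 against Rrad (left, linear axes) and Unc5d against 7SK (right, log axes), in CPM, 1 point per library, coloured by genotype. On the left the del/CreERT2 points sit at the lower end and 3 of 4 WT points at the upper end, and on the right the 4 WT points form the lower left corner and del/+ 2 (17.8 and 691.4 CPM) the upper right one.

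For the other members the closest genes over the same libraries were Wnk1, Ptprg, Ryr2, Chd2 and Parm1 for Neo1 (r from 0.936 to 0.956), Yod1, Zscan30, Sphkap, Adamts12 and Hdgfrp3 for Unc5c (0.828 to 0.874), and Rhob, Taok2, Dnm1, Pelp1 and Nfic for Unc5b (0.79 to 0.862). For the scarce members they were Zfp932, Rhod, Mrpl1, 3110082I17Rik and ENSMUSG00000093606 for Unc5a (0.76 to 0.806), Raph1, Il15ra, Pros1, Acsm3 and Gm15863 for Ntn4 (0.766 to 0.83), and Tsc22d4, Fam83g, Trp53i11, Mblac1 and 2010002N04Rik for Dcc (0.765 to 0.808). These lists depended on the measure. Spearman correlation gave Dcc wholly other genes, kept only Wnk1 of the Neo1 list and only Mrpl1 of the Unc5a list. It kept Yod1, Zscan30 and Adamts12 for Unc5c, Rhob and Pelp1 for Unc5b, and Raph1 and Pros1 for Ntn4. No netrin ligand or receptor was among the 5 closest genes of another. The highest r between 2 members was 0.592, between Unc5c and Neo1, and Ntn1 with Unc5d gave -0.336.

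Of the nearest 3 tested genes on each side of Ntn1 (Sco1, Gas7, Stx8, Pik3r6, Myh10 and Ndel1) and of Unc5d (Rab11fip1, Adrb3, Eif4ebp1, Dusp26, Rnf122 and BC019943), 0 passed edgeR's test in the 6 pairwise comparisons, where 0% to 0.335% of all tested genes did, so nothing is read from that count. Stx8, which lies 2216 bp from Ntn1, was at a log2 change of -0.07 ± 0.30 in del/CreERT2 against WT (edgeR, adjusted p = 1.0). Adrb3 had the lowest p among the neighbours of Unc5d in del/+ against WT, with a log2 change of 1.63 ± 0.78 (edgeR, adjusted p = 0.851). No table entry overlaps Unc5d, and the 2 entries that overlap Ntn1 (Gm12305 and AL662894.1) held 5 counts each over all 16 libraries.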

How the data were processed

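Hearts were sequenced as 16 bulk RNA-seq libraries, grouped by the genotype in the labels. Per the labels' protocols, RNA came from a Qiazol and miRNeasy micro kit extraction, and cDNA from the Ovation V2 system. The submitters' processing notes name TopHat2, featureCounts, edgeR and build mm9, without versions, and the strand setting is not given. The authors deposited whole-number raw counts per gene, entered under the wider class of estimated counts, and none needed rounding. The authors' deposited table also holds log2 fold changes and p-values for each pair of genotypes, printed only where it is named. Gene length for CPM per kilobase is the deposited feature length. A further 52 columns were not used.

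Genes past edgeR's default filter on low counts (14612 of 37991) were tested with edgeR 4.0.16 in R 4.3.3, with TMM scaling and a quasi-likelihood fit of all 16 libraries with 1 mean per genotype (12 residual degrees of freedom). Pairs of genotypes were contrasts of that fit, p-values were adjusted by Benjamini-Hochberg over every gene tested, and the threshold was 0.05. Errors of log2 changes are standard errors. The procedure was tested on simulated counts. Alternatives used other size factors, other filters, DESeq2 1.42.0, limma-voom (limma 3.58.1), fewer libraries, a replicate block and the mitochondrial ribosomal RNA share as covariate.

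The members, the gene and marker lists and the tests were chosen with earlier results of these data known. The text names all 8 members, the gene of lowest p in each pathway list, the 5 genes closest to each member by Pearson correlation and the 3 tested neighbours on each side of Ntn1 and Unc5d. The interaction and the doubted libraries were singled out after seeing the data. Libraries of 1 genotype differed beyond sampling noise in all 24 pairs (chi-square over degrees of freedom of 23.6 or more). Depth was 6611755 to 16796193 counts outside mitochondrial ribosomal RNA, so members with few counts carry wide errors.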

Additional observations from a re-analysis of the deposited data

Results flagged for a closer look

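In 4 of the 32 sets of 4 libraries examined (8 genes in 4 genotypes), 1 library lay far from the other 3, with a gap to its neighbour above Dixon's 95% critical share of the range, which chance gives in about 1 of 20 sets. Ntn1 in del/CreERT2 1 was at 3.63 CPM, above the other del/CreERT2 libraries. Unc5d in del/+ 2 was at 17.8 CPM, and in the same library Dcc was at 2.12 CPM, both above the other del/+ libraries. Dcc in CreERT2/+ 1 was at 1.13 CPM.

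Unc5d was also singled out by the difference between its changes with the CreERT2 allele in the presence and absence of the del allele. Its log2 change was -1.26 ± 0.54 in del/CreERT2 against del/+ and 3.29 ± 0.64 in CreERT2/+ against WT, and the difference of these changes was -4.55 ± 0.83 (-3.82 without del/+ 2). This comparison was added after seeing the data and uses the del/CreERT2, del/+ and WT libraries on which Unc5d was selected, so it is a description and no p-value is given.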

How the results depend on the processing

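Of 980 recomputed log2 changes of members, 885 kept their direction and side of the threshold, 20 kept the direction and lost the threshold, and 14 kept it and gained the threshold. The other 61 changed sign, 54 of them by less than 1 standard error and 7 by more, and 0 of them were past the threshold. Unc5d in del/CreERT2 against CreERT2/+ (0.05) changed sign in 6 of 16 alternatives, with a range of -0.60 to 0.41. Ntn1 in del/CreERT2 against WT ranged from -2.52 to -1.95 and Unc5d from 2.70 to 3.97 there, from 3.88 to 4.88 in del/+ and from 3.03 to 3.81 in CreERT2/+ against WT. The count of members past the threshold, 2 in del/CreERT2 against WT, was 1 with a mean CPM of at least 5 and 1 under limma-voom, and 1 to 2 when 1 library was left out: Unc5d was lost without WT 1, WT 2, WT 3, del/CreERT2 1 or del/CreERT2 2. In del/+ against WT the count of 1 was 2 with no filter on low counts (Ntn1 joined), 0 with a mean CPM of at least 5 and 0 under limma-voom. In CreERT2/+ against WT the count of 0 was 1 (Unc5d) with no filter, under DESeq2, with only those genotypes fitted, with the replicate block (adjusted p = 0.0126), without the 3 libraries of low mitochondrial share and with that share as covariate, and 0 to 1 when 1 library was left out (1 without CreERT2/+ 3). With no filter the count of 0 was 1 in del/CreERT2 against del/+, in del/CreERT2 against CreERT2/+ and in del/+ against CreERT2/+. In del/CreERT2 against CreERT2/+ it was also 1 (Ntn1) under DESeq2 and with the covariate, and 0 to 1 when 1 library was left out (1 without del/CreERT2 1). The interaction's count of 1 was 0 with a mean CPM of at least 5, 0 under limma-voom, and 0 to 1 when 1 library was left out. The counts in del/CreERT2 and del/+ against WT and in the interaction use libraries on which Ntn1 or Unc5d was selected. The other comparisons share libraries with these, so nothing is read from any of these member counts. With a mean CPM of at least 5, Unc5d, Unc5a, Dcc and Ntn4 are not tested, which is by construction; the cause of the other changes was not tested. Over all genes the count of 49 in del/CreERT2 against WT ranged from 13 to 189, the 17 in del/+ against WT from 10 to 120, and the 5 in CreERT2/+ against WT from 3 to 73. The 3 in del/CreERT2 against del/+ ranged from 2 to 65, and the 11 in del/CreERT2 against CreERT2/+ from 3 to 92. The 0 in del/+ against CreERT2/+ ranged from 0 to 36, and the 6 in the interaction from 4 to 73. Deviations of same-numbered libraries had r from -0.501 to 0.653, with 7 of 24 pairs over 0.1. For libraries of other numbers r ran from -0.544 to 0.657, with 22 of 72 pairs over 0.1. Of the 16 libraries, 8 were closest to one of their own number. These values do not settle whether the replicate numbers pair the samples. Ntn4, Dcc and WT Unc5d rest on few counts, which limits their precision.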
